A study of Mus musculus with 5 samples.

Results

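The p53 circuit described here is a set of 10 genes around the tumour suppressor p53 in the mouse embryonic forelimb: Trp53 itself, its regulators Mdm2, Mdm4, Ppm1d and Ccng1, and the arrest and growth-control genes Cdkn1a, Trp53inp1, Btg2, Sesn1 and Sesn2. The members were listed by name as known p53 circuit genes, with no threshold on these data but with earlier results of these data known. Each was taken from the row of the gene table that bears its symbol. All 10 were found among 23725 rows that name a gene, each in a single row. Forelimbs were taken at E11.5, with 47 to 48 somites, from embryos of a mixed C57BL/6 and Swiss Webster strain. There were 3 control samples and 2 Prmt5cKO samples, described by the submitters as biological replicates. The Prmt5cKO embryos have the genotype Prx1Cre+/-;Prmt5c/c, in which a Cre recombinase driven by the Prx1 promoter, active in limb bud mesenchyme, deletes the arginine methyltransferase gene Prmt5. The labels give the other group as control only, and no source used here says whether they carried Cre or a conditional allele.

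p53 is a transcription factor kept low in unstressed cells because Mdm2, a ubiquitin ligase whose gene p53 itself activates, marks it for degradation. Damage or other stress relieves this brake. p53 then raises genes that stop the cell cycle, slow growth or kill the cell, together with feedback genes that shut it down again. In the early limb bud, a tissue of fast-dividing progenitors, the pathway is known as a guard against loss of genome integrity.

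The values are FPKM, fragments scaled to transcript length and to library size, as 1 value per gene and genotype that the authors computed. Values per sample were not used here, so no SD can be given, and whether the authors' q-value (an adjusted p-value) reflects the spread between embryos is unknown. Prmt5 stood at 40.9 FPKM in control and 12.5 FPKM in Prmt5cKO, 30.6% of control (log2 fold change -1.71 in the authors' deposited table, q listed as 0). The row covers the whole gene and the whole limb, so it does not measure how completely the gene was deleted. The forelimb factor Tbx5 stood at 23.0 and 19.9 FPKM and the mesenchyme factor Prrx1 at 122 and 107 FPKM, while the hindlimb factors Tbx4 and Pitx1 were at 3.81 and 0.143 FPKM in control and 2.95 and 0.268 FPKM in Prmt5cKO. The authors did not test Prrx1, and neither Tbx5 nor Tbx4 had a q under 0.05. Transcripts that mark sex also differed: in control and Prmt5cKO, Xist, made only from an inactive X, was at 87.3 and 0.392 FPKM, and Ddx3y, from the Y, at 0.0840 and 21.8 FPKM. Xist was not tested by the authors. None of the 10 members lies on a sex chromosome (0 of 10), but for every difference below the genotype and the sex of the embryos cannot be told apart.

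Of the 10 members, 6 were higher in Prmt5cKO at an authors' q under 0.05, 1 was lower and 3 did not pass. The cyclin gene Ccng1 and the cell cycle inhibitor gene Cdkn1a stood nearly 6-fold above control, Sesn2 at 3.0 times control, and Trp53, Trp53inp1 and Mdm2 between 1.29 and 1.51 times control. Sesn1 was the member that fell, to 0.699 of control. Mdm4, Ppm1d and Btg2 did not pass. For comparison, 4.90% of the 11193 named rows tested by the authors with a mean of at least 1 FPKM were higher and 19.3% were lower by the same rule. The median log2 fold change of the members was 0.45, against -0.13 for all tested rows in the authors' deposited table. The members were chosen with earlier results of these data known, so these counts and medians are a description. All 10 members were tested and reached the minimum level. In bulk tissue, fewer cells of a type and less RNA per cell cannot be told apart.

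**Figure D1:**
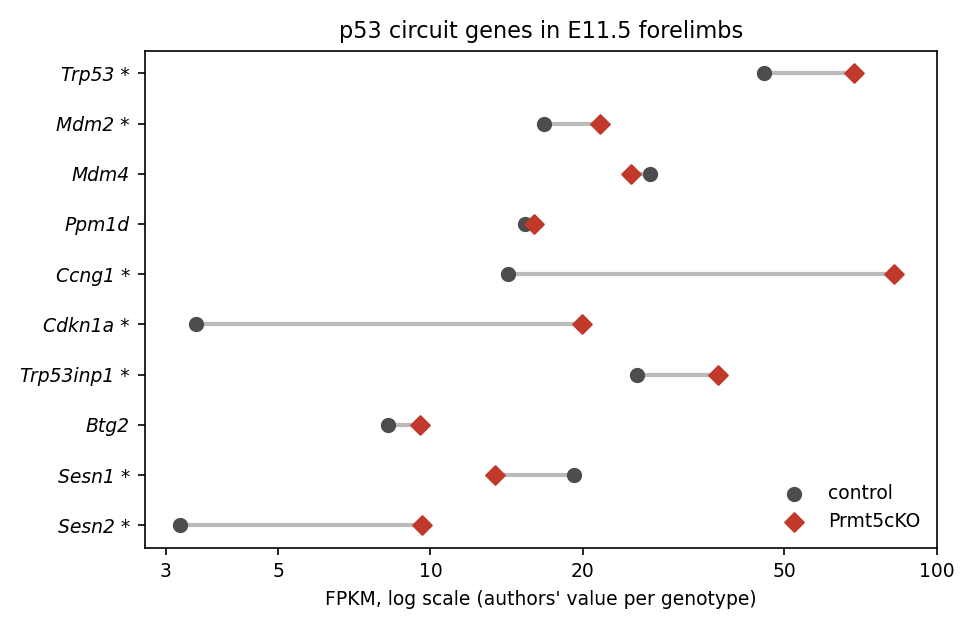
Level of each member in control (grey circles) and Prmt5cKO forelimbs (red diamonds), as the authors' FPKM per genotype on a log axis; an asterisk marks members past an authors' q under 0.05, and no error bars exist because values per sample were not used. Ccng1 moves from 14.2 to 82.2 FPKM and Cdkn1a from 3.45 to 19.9 FPKM, whereas Mdm4, Ppm1d and Btg2 lie close together in both genotypes.

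Promoter sequences are given for 3 members that rose, to set the start sites of Cdkn1a and Ccng1, which rose by a like amount, beside that of Sesn2, which rose less. Each is the stretch of 250 bases before the RefSeq start in build GRCm38.p6 (mm10), read 5′ to 3′ on the strand of the gene. Capitals mark 2 adjoining copies of the p53 consensus decamer, the 10-base unit that p53 binds in pairs, with at most 1 mismatch in the 20 bases and no spacer. The Cdkn1a stretch lies on the plus strand of chromosome 17 (29090729 to 29090978), the Ccng1 stretch on the minus strand of chromosome 11 (40755287 to 40755536), and the Sesn2 stretch on the minus strand of chromosome 4 (132510457 to 132510706).
Cdkn1a: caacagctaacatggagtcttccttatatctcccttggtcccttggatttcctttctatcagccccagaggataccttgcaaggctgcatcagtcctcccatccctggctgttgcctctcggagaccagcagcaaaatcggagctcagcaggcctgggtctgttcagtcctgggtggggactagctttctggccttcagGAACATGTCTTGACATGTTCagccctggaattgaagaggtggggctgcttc
Ccng1: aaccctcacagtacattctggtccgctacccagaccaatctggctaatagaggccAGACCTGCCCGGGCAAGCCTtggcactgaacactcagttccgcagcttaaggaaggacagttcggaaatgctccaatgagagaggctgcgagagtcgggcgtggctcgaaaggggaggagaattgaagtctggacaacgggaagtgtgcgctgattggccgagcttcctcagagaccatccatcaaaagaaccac
Sesn2: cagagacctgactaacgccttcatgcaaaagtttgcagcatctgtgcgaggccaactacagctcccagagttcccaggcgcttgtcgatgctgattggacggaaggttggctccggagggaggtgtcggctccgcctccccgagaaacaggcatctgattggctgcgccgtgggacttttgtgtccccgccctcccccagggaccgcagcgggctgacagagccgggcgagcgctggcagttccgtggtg
The capitals of Cdkn1a run from position -51 to -32, counted from the upstream start at 29090979, and the other RefSeq start, at 29093769, has no decamer in its window. The capitals of Ccng1 run from position -195 to -176. Another exact decamer of Cdkn1a, GGACTAGCTT, begins at position -73 and forms an exact pair, with a spacer of 12 bases, with the first decamer in capitals. Sesn2 has no such pair in this window, and neither its window nor those of Mdm4 and Btg2 holds an exact decamer.

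RefSeq windows of 300 bases, 250 before and 50 after the start, were at hand for 9 members in 12 windows; Trp53inp1 had none. An exact decamer was found in 6 of the 12 member windows, which belong to 6 different members, and in 8.36% of all 32851 windows. The decamer reads the same on both strands. Besides Cdkn1a and Ccng1, these were Trp53 with GGACTTGCCC, Mdm2 with GAACTTGCCT, Ppm1d with GAGCTTGCTC and the downstream of the Sesn1 starts with AAGCTTGTTT. A pair with no mismatch and a spacer of up to 13 bases was present in Cdkn1a alone among the members and in 0.0731% of all windows. The adjoining pair with at most 1 mismatch, a search chosen after the sequences were seen, was present in Cdkn1a and Ccng1 and in 0.0883% of all windows. Sequence matches describe the letters only, since p53 binding was not measured. Sites in introns, or farther upstream than the windows, were not searched.

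The adjoining pair was found in windows of 29 genes, of which 6 were tested by the authors with a mean of at least 1 FPKM. Of these 6, 5 were higher in Prmt5cKO and none was lower (0), where 4.90% of all tested rows were higher. Cdkn1a and Ccng1 are among the 5, and the search was chosen after their sequences and values were seen, so the count is a description. Besides Ccng1 and Cdkn1a they were Gtse1, a regulator of p53 in the G2 phase, at 13.2 FPKM in control and 33.5 FPKM in Prmt5cKO, the ribosomal protein gene Rps27l at 244 and 401 FPKM, and the folate enzyme gene Mthfd1 at 31.9 and 41.5 FPKM. The gene that did not pass was Calhm2, at 2.20 and 2.76 FPKM (authors' deposited table, q = 0.488). Gtse1 and Rps27l also belong to the list of other p53 targets below, put together with earlier results of these data known. Of the 6, only Mthfd1 and Calhm2 are neither members nor in that list. The Y box, with the letters CCAAT on either strand, was present in 8 of the 12 member windows, from 7 members, and in 37.4% of all windows. The letters TTTGAA on either strand, found in cell cycle promoters, were in no member window (0 of 12) and in 17.9% of all.

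**Figure D2:**
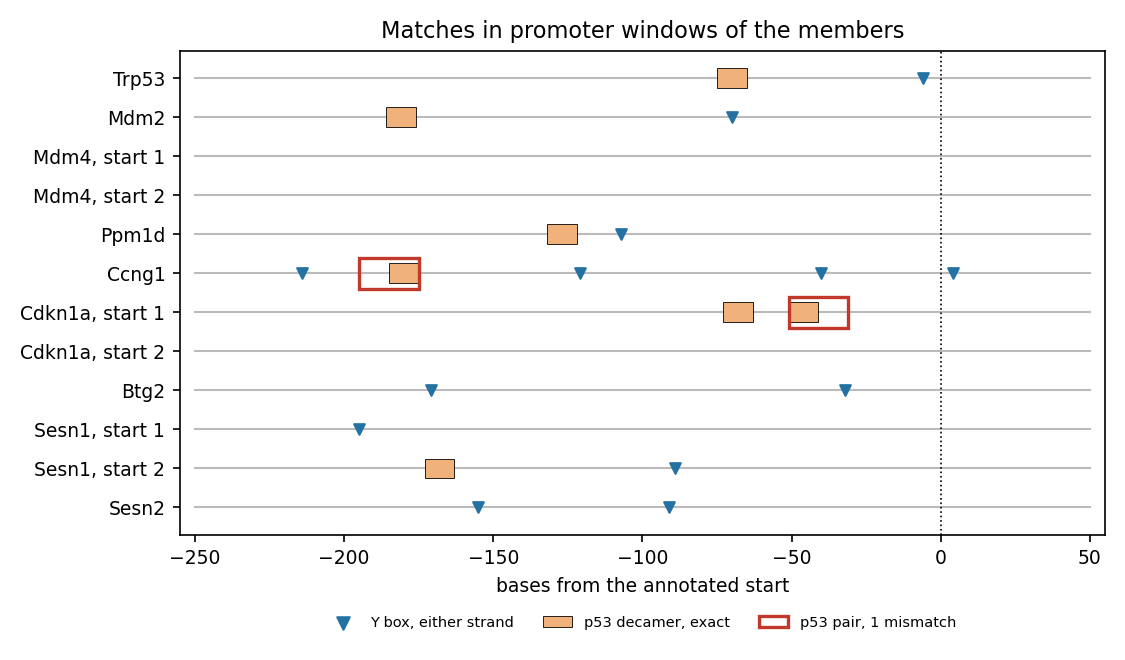
Matches in the 12 RefSeq promoter windows of 9 members, by distance in bases from the annotated start (dotted line); orange boxes are exact p53 decamers, red outlines the adjoining pair with 1 mismatch, and blue triangles the Y box on either strand. Red outlines appear only in the upstream Cdkn1a window and in the Ccng1 window.

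Trp53, which encodes p53, had the highest control level of the 10, at 45.5 FPKM, and stood at 68.6 FPKM in Prmt5cKO. Its transcript was thus 50.6% higher (log2 fold change 0.59 in the authors' deposited table, q = 9e-08). Trp53 is on the plus strand of chromosome 11 (69580359 to 69591873, GENCODE M21 on GRCm38). p53 is regulated largely through the stability of the protein, which these data do not measure. The neighbouring gene Wrap53, which lies 104 bases from Trp53, was at 14.3 FPKM in control with a log2 fold change of -0.03, not past the threshold in the authors' deposited table (q = 0.932).

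Among the negative regulators, Mdm2 rose modestly. It went from 16.7 FPKM in control to 21.6 FPKM in Prmt5cKO, 29.2% higher (log2 fold change 0.37 in the authors' deposited table, q = 2.4e-05). Mdm2 lies on the minus strand of chromosome 10 (117688875 to 117710758). Mdm4, a relative of Mdm2 that binds and blocks the activation domain of p53, was at 27.2 and 24.9 FPKM (log2 fold change -0.13 in the authors' deposited table, q = 0.144). Mdm4 is known to be spliced into a short, unstable form when Prmt5 activity is lost, and a value per gene cannot separate splice forms; 14 transcripts are annotated for it. Ppm1d, the phosphatase Wip1 that removes activating phosphates from p53 and its kinases, was at 15.3 and 16.0 FPKM (log2 fold change 0.06 in the authors' deposited table, q = 0.827).

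Because FPKM is scaled per length, levels can be set against each other. Per unit of Trp53 transcript, Mdm2 stood at 0.367 in control and 0.315 in Prmt5cKO, Mdm4 at 0.597 and 0.363, and Ppm1d at 0.337 and 0.233. The ratio of Mdm2 to Mdm4 was 0.616 in control and 0.869 in Prmt5cKO. All 3 regulators were thus lower relative to Trp53 in Prmt5cKO, a comparison of levels with no test.

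Ccng1 encodes cyclin G1, an atypical cyclin that directs the phosphatase PP2A to Mdm2 and so acts in the feedback on p53. It rose from 14.2 to 82.2 FPKM, 5.78 times control (log2 fold change 2.53 in the authors' deposited table, q listed as 0). This moved Ccng1 from position 7 among the members in control to position 1 in Prmt5cKO, above Trp53. Among all 11193 tested rows it held rank 10 from the highest log2 fold change. Rows ranked above it include Ddx3y, Kdm5d, Uty and Eif2s3y, genes of the Y that mark sex. They also include Eda2r, Ptprv and Ano3, each under 1 FPKM in control. The same rows stand above Cdkn1a and Sesn2 in the ranks given below. Ccng1 lies on the minus strand of chromosome 11 (40748552 to 40755311). Feedback genes thus differed in size of change: Ccng1 stood at 0.850 times the Mdm2 level in control and at 3.80 times that level in Prmt5cKO.

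**Figure D3:**
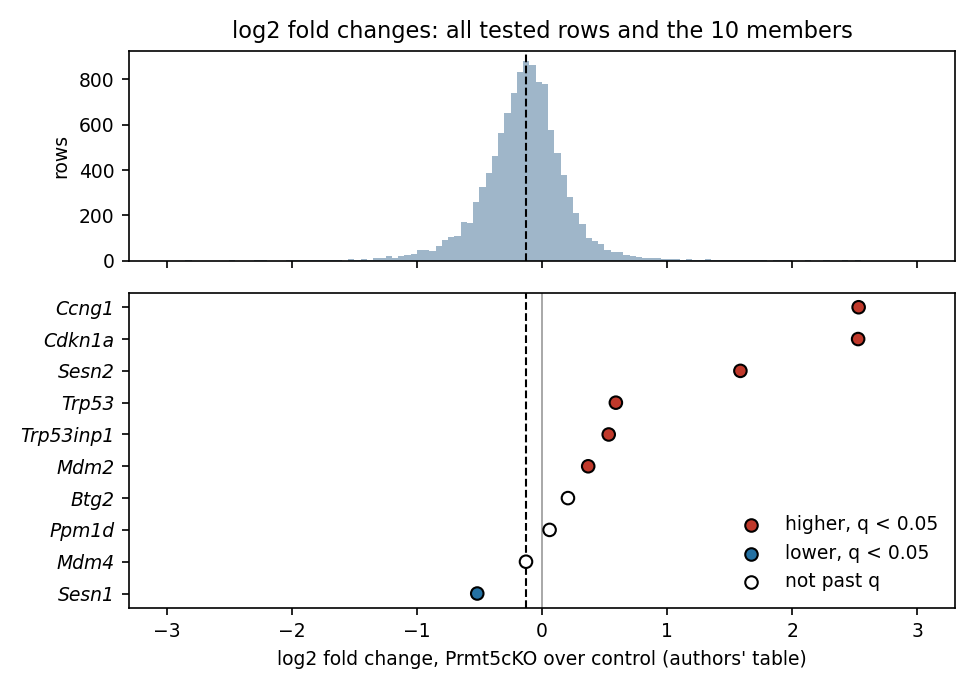
Upper panel, histogram of the log2 fold change (Prmt5cKO over control, authors' table) of all 11193 tested rows with a mean of at least 1 FPKM, drawn up to 3 units on either side of 0; lower panel, the 10 members on the same axis, red where higher and blue where lower at an authors' q under 0.05, open where not past it. The dashed line is the median of all tested rows, -0.13; Ccng1, Cdkn1a and Sesn2 lie far to the right of it and Mdm4 lies on it.

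The arrest gene Cdkn1a encodes p21, which binds and inhibits cyclin-dependent kinases and is the best known p53 target in arrest in G1. It rose from 3.45 to 19.9 FPKM, 5.77 times control (log2 fold change 2.53 in the authors' deposited table, q listed as 0). Cdkn1a lies on the plus strand of chromosome 17 (29090976 to 29100727) and held rank 11 from the highest log2 fold change. Its control level lay above only 18.9% of the named rows of mean at least 1 FPKM, and its Prmt5cKO level above 69.2%. An unnamed transcript model on the other strand shares 273 of its 3553 annotated exon bases, and reads of the pair could not be told apart without strand. The rows nearest to Cdkn1a in log2 fold change, a likeness over the 2 genotype values only, were Ccng1, the death receptor gene Fas (0.324 to 1.75 FPKM) and Fam212b (0.643 to 3.41 FPKM); for Ccng1 they were Cdkn1a and the same other genes, Fas and Fam212b.

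Trp53inp1 encodes a nuclear protein that promotes phosphorylation of p53 and transcription of its targets. It rose from 25.6 to 37.0 FPKM, 44.8% higher (log2 fold change 0.53 in the authors' deposited table, q = 9.5e-09), and lies on the plus strand of chromosome 4 (11156431 to 11174379). Btg2, an antiproliferative protein that recruits the CCR4-NOT deadenylase to messenger RNA, was at 8.25 and 9.53 FPKM. Its log2 fold change of 0.21 was not past the threshold (authors' deposited table, q = 0.455). With Btg2 the lowest member in Prmt5cKO, the levels spanned 14.2-fold from lowest to highest in control and 8.63-fold in Prmt5cKO.

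The sestrins restrain growth signalling: they bind GATOR2, a complex needed to switch on the kinase complex mTORC1. Sesn1 and Sesn2 went in opposite directions. Sesn2 was the lowest member in control at 3.20 FPKM and rose to 9.62 FPKM (log2 fold change 1.59 in the authors' deposited table, q = 2.1e-14). It held rank 24 of 11193 from the highest log2 fold change. Sesn2 is also known as a target of the stress factor ATF4, whose own gene Atf4 was at 77.2 and 80.8 FPKM (authors' deposited table, q = 0.554, not past the threshold). These data do not measure the ATF4 protein, and its part in the change of Sesn2 was not tested. Sesn1 fell from 19.2 to 13.4 FPKM (log2 fold change -0.52 in the authors' deposited table, q = 2.7e-07). Sesn2 lies on the minus strand of chromosome 4 (132492032 to 132510501) and Sesn1 on the plus strand of chromosome 10 (41809935 to 41908424).

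The order of the members by level therefore differed between genotypes. In control it ran Trp53, Mdm4, Trp53inp1, Sesn1, Mdm2, Ppm1d, Ccng1, Btg2, Cdkn1a and Sesn2, and in Prmt5cKO it ran Ccng1, Trp53, Trp53inp1, Mdm4, Mdm2, Cdkn1a, Ppm1d, Sesn1, Sesn2 and Btg2. Without values per sample, whether neighbours in either order differ beyond their spread is unknown. The summed level of the 10 members was 178.7 FPKM in control and 302.8 FPKM in Prmt5cKO, and Ccng1 made up 68.0 FPKM of the difference, followed by Trp53 with 23.0 and Cdkn1a with 16.4 FPKM.

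Close relatives of the members were also read, since several are not known as p53 targets. Of 13 paralogs that reached 1 FPKM, none rose (0), 5 fell, 7 were not past the threshold and 1 had no test; 19.3% of all tested rows fell. The 5 that fell were Ccng2 (55.4 to 36.8 FPKM), Sesn3 (28.5 to 17.1 FPKM), Trp53inp2 (5.52 to 2.83 FPKM), Btg1 (25.2 to 17.6 FPKM) and the p27 gene Cdkn1b (26.5 to 22.1 FPKM). In this order the authors' deposited table lists log2 fold changes of -0.59, -0.74, -0.96, -0.51 and -0.26. Cdkn1c, the p57 gene, was at 282 and 177 FPKM and was not tested by the authors.

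Of the other paralogs, Ccni was at 77.4 and 68.9 FPKM, Btg3 at 9.73 and 10.8 FPKM, and the p53 relative Trp63, an ectoderm gene, at 10.5 and 11.3 FPKM, none of them past the threshold. The phosphatase genes Ppm1a, Ppm1b, Ppm1g and Ppm1k, at 36.9, 34.7, 33.6 and 4.61 FPKM in control and 33.6, 31.9, 38.0 and 3.72 FPKM in Prmt5cKO, did not pass either. Trp73 was below the minimum at 0.534 and 0.648 FPKM, as were Btg4 at 0.0363 FPKM in control and listed at 0 in Prmt5cKO, and Ppm1e, listed at 0 in both. Ppm1f shares its row with other genes and was left out.

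Within families the composition therefore shifted. Ccng1 made up 20.4% of the G cyclin transcripts in control and 69.1% in Prmt5cKO, while their sum was 69.6 and 119 FPKM. Sesn2 made up 6.29% of the sestrin transcripts in control and 24.0% in Prmt5cKO, although the sestrin sum was lower in Prmt5cKO, 40.1 against 50.9 FPKM. Cdkn1a made up 1.10% of the Cip/Kip inhibitor transcripts in control and 9.10% in Prmt5cKO. That sum too was lower, 219 against 312 FPKM, most of it from Cdkn1c, which the authors did not test. Trp53inp1 went from 82.2% to 92.9% of the pair it forms with Trp53inp2. Btg2, whose own change did not pass the threshold, went from 19.1% to 25.1% of the sum of Btg1, Btg2 and Btg3. These shares are descriptions of single values per genotype.

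**Figure D4:**
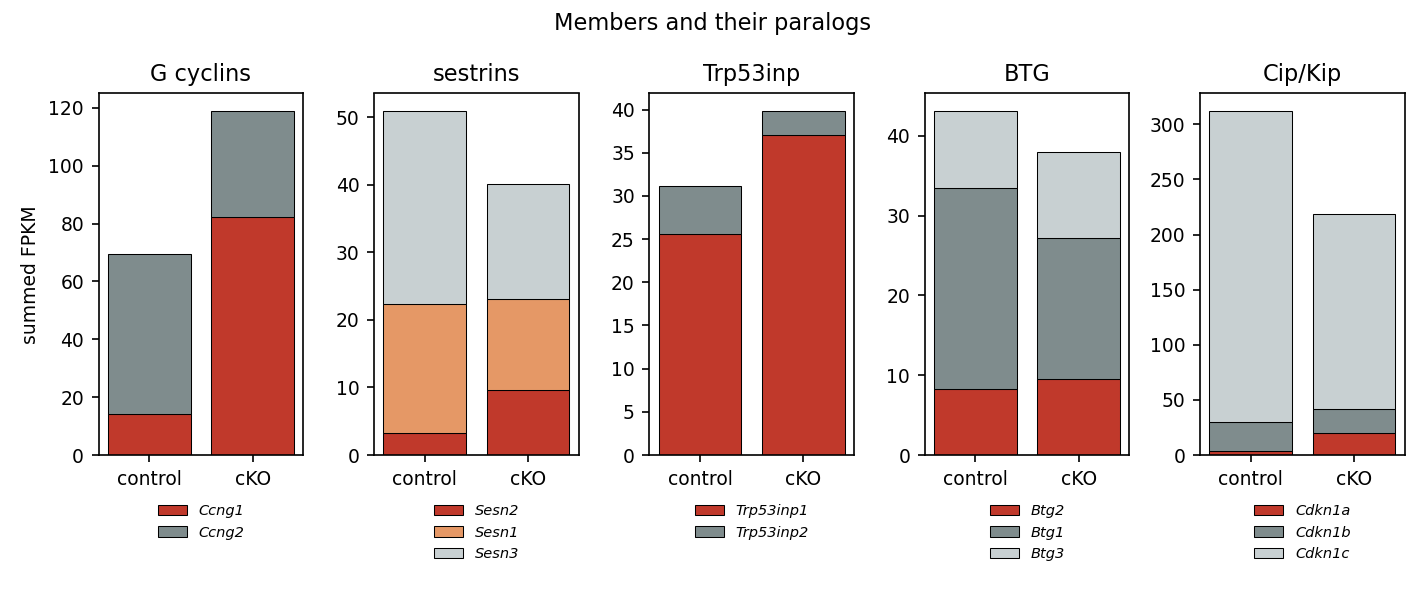
Summed FPKM of 5 gene families in control and Prmt5cKO (cKO), stacked by gene, with the member in red (Sesn1, also a member, in orange) and paralogs in grey; each panel has its own axis from 0. The red part is larger in Prmt5cKO in each panel, though Btg2 did not pass the threshold. The total is lower in Prmt5cKO for the sestrins (50.9 to 40.1 FPKM), BTG genes and Cip/Kip inhibitors (312 to 219 FPKM), where Cdkn1c was not tested.

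Among 36 other p53 targets that reached 1 FPKM, 23 rose, 2 fell, 9 were not past the threshold and 2 had no test, with a median log2 fold change of 0.95. Several of these genes tie at q = 0, as the authors' deposited table gives it. The tied genes with the largest log2 fold changes were Eda2r, a receptor gene of the X chromosome (0.520 to 17.9 FPKM), Ptprv, a receptor phosphatase (0.315 to 3.93 FPKM), and Phlda3, an inhibitor of Akt signalling (8.36 to 36.5 FPKM). Those that fell were the DNA repair gene Ddb2 (8.98 to 6.57 FPKM) and the ribonucleotide reductase gene Rrm2b (2.25 to 1.34 FPKM). Of all tested rows, 4.90% were higher and 19.3% lower. The list of other p53 targets was put together with earlier results of these data known, so its count is a description.

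Of 22 genes of the p53 family and its control that reached 1 FPKM, 18 were tested, of which 2 rose, 3 fell and 13 were not past the threshold. These shares are near those of all tested rows, 4.90% higher and 19.3% lower. The deubiquitinase gene Usp7, which stabilises Mdm2 and p53, went from 35.8 to 40.3 FPKM, and Mtbp, a partner of Mdm2, from 17.8 to 21.7 FPKM. The falls were the damage kinase genes Atr (15.7 to 13.5 FPKM) and Prkdc (10.3 to 8.85 FPKM) and the acetyltransferase gene Kat5 (26.3 to 23.1 FPKM). Log2 fold changes of these 5 lay between -0.22 and 0.28 in the authors' deposited table. The ribosomal proteins Rpl5 and Rpl11, which bind and block Mdm2, did not pass at 682 and 666 FPKM and at 1444 and 1430 FPKM in control and Prmt5cKO.

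Cell cycle genes were read next. Of 30 E2F and DREAM targets, genes that p21 is known to hold down through the retinoblastoma family, 2 rose, 1 fell, 25 were not past the threshold and 2 had no test. The mitotic checkpoint kinase gene Bub1 (35.1 to 41.9 FPKM) and the replication licensing gene Cdt1 (to 14.8 FPKM in Prmt5cKO, log2 fold change 0.37 in the authors' deposited table) rose, and the repressor gene E2f8 (6.13 to 4.64 FPKM) fell. The 28 tested E2F and DREAM targets had a median log2 fold change of 0.07, against -0.13 for all tested rows. Of all tested rows, 4.90% were higher and 19.3% lower. Of 18 cyclins, CDKs and other inhibitors, 15 were tested, of which 1 rose, 4 fell and 10 were not past the threshold, shares near the 4.90% higher and 19.3% lower of all tested rows. Cdk6 rose from 7.25 to 8.81 FPKM; Ccnb2, Cdkn1b, the p18 gene Cdkn2c (3.08 to 1.59 FPKM) and Rbl2 (4.89 to 3.34 FPKM), a member of the retinoblastoma family, fell.

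Around the sestrins, 24 genes of nutrient and stress signalling reached 1 FPKM and 21 were tested. Of these none rose (0), 5 fell and 16 were not past the threshold, shares near the 4.90% higher and 19.3% lower of all tested rows. Besides Sesn3 the falls were the autophagy receptor gene Sqstm1 (59.4 to 44.8 FPKM), the kinase gene Mtor (11.6 to 8.90 FPKM), Keap1 (18.2 to 15.8 FPKM) and Gatsl2 (2.87 to 1.97 FPKM). Around Btg2, 12 genes of the BTG family and the CCR4-NOT complex reached 1 FPKM, and Btg1 alone fell, with none risen (0), 6 not past and 5 not tested. Prmt1, the arginine methyltransferase that binds BTG proteins, was at 125 and 141 FPKM (authors' deposited table, q = 0.200, not past the threshold).

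**Figure D5:**
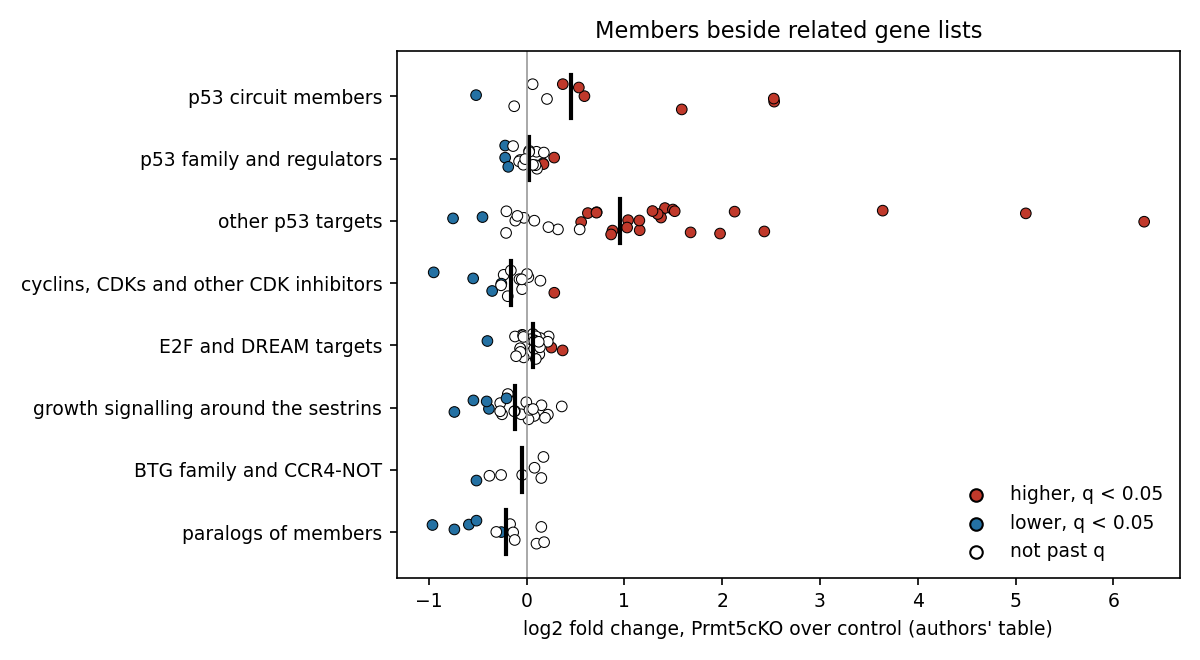
Log2 fold change (Prmt5cKO over control, authors' table) of each tested gene of mean at least 1 FPKM in the members and 7 related lists, 1 point per gene with vertical jitter for visibility; red is higher and blue lower at an authors' q under 0.05, open is not past it, and black bars are list medians. The members and the other p53 targets, both chosen with earlier results of these data known, spread to the right (medians 0.45 and 0.95). E2F and DREAM targets centre on 0.07, and the median of all tested rows was -0.13.

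Markers of other cells moved beside these genes. By the same rule, 4.90% of all tested rows were higher and 19.3% lower. Of 13 macrophage markers 10 were higher and none was lower (0), with a summed level of 37.7 FPKM in control and 70.9 FPKM in Prmt5cKO, no marker at 0, and Csf1r, the receptor that defines the lineage, at 3.36 and 5.57 FPKM. Of 12 surface ectoderm and ridge markers 5 were higher and 1 lower, with sums of 183 and 186 FPKM and Krt5 at 35.3 and 32.2 FPKM. Keratins hold much of that sum. The 5 higher were the ridge genes Fgf8 (7.17 to 14.4 FPKM), Sp6 (4.09 to 6.00 FPKM) and Sp8 (3.88 to 5.42 FPKM), with Tfap2a (2.91 to 4.25 FPKM) and Epcam (21.9 to 24.8 FPKM), and the lower was Krt15 (9.27 to 5.71 FPKM). Of 5 measured muscle markers and 7 endothelial markers, 5 of them tested, none passed (0), with sums over all listed of 42.0 and 40.6 FPKM and of 62.2 and 59.8 FPKM. Pecam1, of endothelium and not tested by the authors, was at 13.9 and 11.0 FPKM, and Pax3, of the muscle precursors, was below the minimum at 0.525 and 1.14 FPKM. Of 6 red cell markers 1 fell, Alas2 (29.3 to 20.7 FPKM), and none rose (0), with the embryonic globin gene Hba-x at 1258 and 1182 FPKM. The part of these cells in the levels of the members was not tested.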

How the data were processed

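Forelimbs of 3 control and 2 Prmt5cKO samples were grouped by the sample titles. Per the submitters' processing notes, TopHat2 2.0.10, Bowtie2 2.1.0, Cufflinks 2.1.1 and build mm10 were used, without roles; no source used here gives the annotation, the strand setting or the authors' test. The authors deposited 1 FPKM value per genotype, a log2 fold change and a q-value (adjusted p-value) per row. How replicates were combined is not given, and depth per sample is unknown. Only the authors' values and q were used. The fold change differed from the log2 of the FPKM ratio by at most 1.3e-05 over 20663 rows. A shorter deposited table of 208 rows repeats 3 members, with log2 values within 0.00045.

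Rows that name no gene (15.5%, holding 1.94% and 2.08% of summed FPKM in control and Prmt5cKO) were left out. Rows listing fold 0 and q 1 were taken as untested, in 1139 of 12332 named rows with a mean of at least 1 FPKM. Called means a mean of at least 1 FPKM and a q under 0.05. The members and lists were chosen with earlier results of these data known. Genes named from lists are the called ones with the 3 smallest q (ties by the larger log2 fold change), all paralogs and the first gene of each marker list; others, including those behind small counts and genes such as Rpl5, Rpl11, Atf4 and Prmt1, were picked with their values in view. GENCODE M21 gave the coordinates and RefSeq the promoters (GRCm38.p6). No exon of a member overlaps another gene that has a row. Calculations used Python 3.11.15 and pandas 2.3.3; counting and motif search were tested on simulated data.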

Additional observations from a re-analysis of the deposited data

How the results depend on the processing

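No paired analysis was possible because the values used here are 1 per genotype, and for the same reason no replicate could be left out. The counts of 6 members higher and 1 lower were the same with no minimum level, a minimum mean of 5 FPKM, a q under 0.01 or 0.1, and centring on the median. These settings could not have changed them. Every member has a mean above 5 FPKM, no member has a q between 0.01 and 0.1, and centring left q as it was. With a fold of at least 1.5 the count of lower members was 0, because Sesn1 lies below that fold, and 4 members were higher. The median log2 fold change of the members ranged from 0.43 to 0.58 over pseudocounts of 1 and 0.1 FPKM, centring, quantile normalization and summed rows. Summing rows could change nothing, because each member has a single row. No called member changed direction. Mdm4, not called, ranged from -0.13 to 0.00. Cdkn1a ranged from 2.23 to 2.66 and Sesn1 from -0.52 to -0.38. A p53 decamer pair was present in 1 member with no mismatch and a spacer of up to 13 bases, in 0 without a spacer, and in 2 with up to 1 mismatch, with or without a spacer; both searches with a mismatch were added after seeing the sequences. Lists changed with no minimum level only for the muscle markers, where Pax3 added 1 rise.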

Other observations

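Genes beside the members on their chromosomes were read too. Of the 20 protein-coding genes that lie nearest on either side of each member in GENCODE M21, a set chosen after the members' values were seen, 4 fell and none rose (0), while 11 were not past the threshold and 5 lay below 1 FPKM; by the same rule 4.90% of all tested rows rose and 19.3% fell, so a count of 0 rises among so few genes is near the background. Around Cdkn1a, the splicing factor gene Srsf3 was at 336 and 342 FPKM and Rab44 at 0.0607 and 0.0490 FPKM in control and Prmt5cKO. Around Ccng1, Nudcd2 was at 67.0 and 64.4 FPKM. The cyclin gene Ccne2, 16972 bases from Trp53inp1, was at 9.61 and 9.63 FPKM. Of the 4 that fell, 3 lie beside members that did not rise. The 4 were Slc35e3 beside Mdm2, Appbp2 and Bcas3 on either side of Ppm1d, and the proteoglycan gene Fmod beside Btg2 (1.93 to 1.02 FPKM).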
